A study of Rattus norvegicus with 5 samples.

Results

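The respiratory chain and the ATP synthase of the mitochondrial inner membrane were followed in a rat blood fraction sorted for myeloid-derived suppressor cells (MDSCs), which are immature myeloid cells that can hold T cells in check. Members were chosen by gene symbol alone: every array probe with exactly 1 symbol that begins with Nduf, Sdha to Sdhd, Uqcr, Cox4 to Cox8 or Atp5, or is Cyc1 or Cycs. The rule found 45 probes for 44 genes, out of 5990 genes with a named probe and 26856 probes with values. A gene with several probes was represented by the probe with the highest mean. The RefSeq annotation holds 124 protein-coding rat genes that match the rule. Of the 44 members 42 are protein-coding, and 2, Ndufs6-ps1 and Cox6c-ps1, are listed as pseudogenes. No probe carries the symbol of Sdhb, Cyc1, Cox6a1, Cox7a1, Cox8a, Cox6b1 or Cox6b2, so these were not analysed here.

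All recipients were LEW.1A rats (haplotype RT1a) sampled 100 days after a heterotopic kidney transplant. The 3 tolerant samples came from recipients of an MHC-mismatched LEW.1W kidney (haplotype RT1u) in which tolerance had been induced with JJ319, an antibody against the costimulatory receptor CD28. The 2 syngeneic samples came from recipients of a LEW.1A kidney, and the labels do not say whether these were given an antibody. LEW.1W donors were 8 to 12 weeks old, and the recipients' own kidneys were removed 7 days after transplantation in the allogeneic operations. The recipients' own age is not stated in the labels. Both groups went through the same sort: after lysis of red cells, beads took out cells positive for MHC class II or CD3, and a magnetic sort then kept those stained for CD80 and CD86. The design text speaks of 3 recipients per group, and no label ties an array to an animal. The p-values therefore rest on array-to-array spread alone, part of which may be technical.

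Complexes I and II pass electrons from NADH and succinate to ubiquinone, complex III hands them to cytochrome c, and complex IV passes them to oxygen. Complexes I, III and IV pump protons across the inner membrane, and the ATP synthase lets them flow back through its membrane rotor to drive ATP formation in its F1 head. Most subunits are encoded in the nucleus, are expressed in nearly all cells, and have several tissue isoforms in complex IV. Myeloid cells are known to differ in their reliance on oxidative phosphorylation, neutrophils being largely glycolytic.

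The promoters of respiratory genes are known for binding sites of NRF1 and of ETS factors such as GABPA (NRF2), and 4 of them are shown here as examples. Windows from 250 bases before to 50 bases after the RefSeq transcription start (build GRCr8) were available for 40 of the 44 members. Capitals mark matches on either strand to GCGCA, then any base, then GCGC (NRF1), or to CCGGAAG (ETS), and the members held 0 overlaps of the motifs. The Sdha window (chr1:30764303-30764602, plus strand) has 3 NRF1 matches, and the Cox4i1 window (chr19:65630133-65630432, plus strand) has 2 ETS matches downstream of the start. Both genes were above background on every array. Atp5f1b (chr7:1099808-1100107, plus strand), the member with the widest range over arrays, and the muscle isoform Cox6a2 (chr1:192219667-192219966, minus strand), which was at background on every array, have neither motif in these letters.
Sdha: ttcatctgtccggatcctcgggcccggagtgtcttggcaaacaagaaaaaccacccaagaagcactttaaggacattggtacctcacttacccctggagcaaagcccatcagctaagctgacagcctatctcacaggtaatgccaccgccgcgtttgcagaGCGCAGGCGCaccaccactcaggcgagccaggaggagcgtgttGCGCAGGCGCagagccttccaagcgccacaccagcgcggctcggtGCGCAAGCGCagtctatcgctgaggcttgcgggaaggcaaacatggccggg
Cox4i1: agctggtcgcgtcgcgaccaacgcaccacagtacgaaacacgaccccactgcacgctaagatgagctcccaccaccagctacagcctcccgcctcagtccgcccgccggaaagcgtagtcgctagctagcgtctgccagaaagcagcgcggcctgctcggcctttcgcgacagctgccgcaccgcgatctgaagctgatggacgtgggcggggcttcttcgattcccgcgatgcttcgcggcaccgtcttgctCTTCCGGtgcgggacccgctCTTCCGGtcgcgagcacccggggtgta
Atp5f1b: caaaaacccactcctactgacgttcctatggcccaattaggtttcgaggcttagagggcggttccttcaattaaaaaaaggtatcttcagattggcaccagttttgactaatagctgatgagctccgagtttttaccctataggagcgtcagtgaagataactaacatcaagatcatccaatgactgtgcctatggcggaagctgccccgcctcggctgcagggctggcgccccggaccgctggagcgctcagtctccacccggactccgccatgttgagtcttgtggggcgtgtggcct
Cox6a2: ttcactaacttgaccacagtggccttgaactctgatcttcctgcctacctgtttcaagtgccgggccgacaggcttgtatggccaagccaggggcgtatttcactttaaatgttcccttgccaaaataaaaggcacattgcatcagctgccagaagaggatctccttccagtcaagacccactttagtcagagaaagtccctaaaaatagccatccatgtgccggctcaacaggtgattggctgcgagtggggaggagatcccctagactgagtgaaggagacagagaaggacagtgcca

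An NRF1 match was found in 9 of the 40 member windows (22.5%) and an ETS match in 12 (30.0%). Of all 33469 windows of the same length, 4.25% held an NRF1 match and 8.75% an ETS match. Among the 35 members with a window that were above background on all 5 arrays, 19 held at least 1 of the motifs, and among the 3 at background on all arrays, 0 did. Of all windows of that length 12.2% held at least 1 of the motifs, so 0 of 3 does not set the members at background apart. Cox5a, Cycs, Ndufv1 and Atp5f1d were above background on all arrays and held neither motif. A match is a description of the letters, and nothing was measured of binding.

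Nearly the whole set was expressed. The background level of an array was the signal below which 95% of its 476 olfactory receptor probes lay (log2 signal 10.73 to 11.13), and 37 of the 44 genes lay above it on all 5 arrays. On single arrays 86.4% to 88.6% of members lay above it, while 23.2% to 26.9% of all probes did. Atp5f1b and Ndufaf4 were above it on 4 arrays each. The 5 genes at background on every array were all assigned to complex IV: Cox4i2, an isoform of subunit IV known for expression in lung, Cox6a2 and Cox8b, isoforms of heart and skeletal muscle, Cox8c, and Cox6c-ps1. The ubiquitous partner of the first of these, Cox4i1, was at 16.96, 16.96 and 17.26 on tolerant arrays 1, 2 and 3 and at 17.37 and 17.19 on syngeneic arrays 1 and 2. Its group values overlapped.

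**Figure D1:**
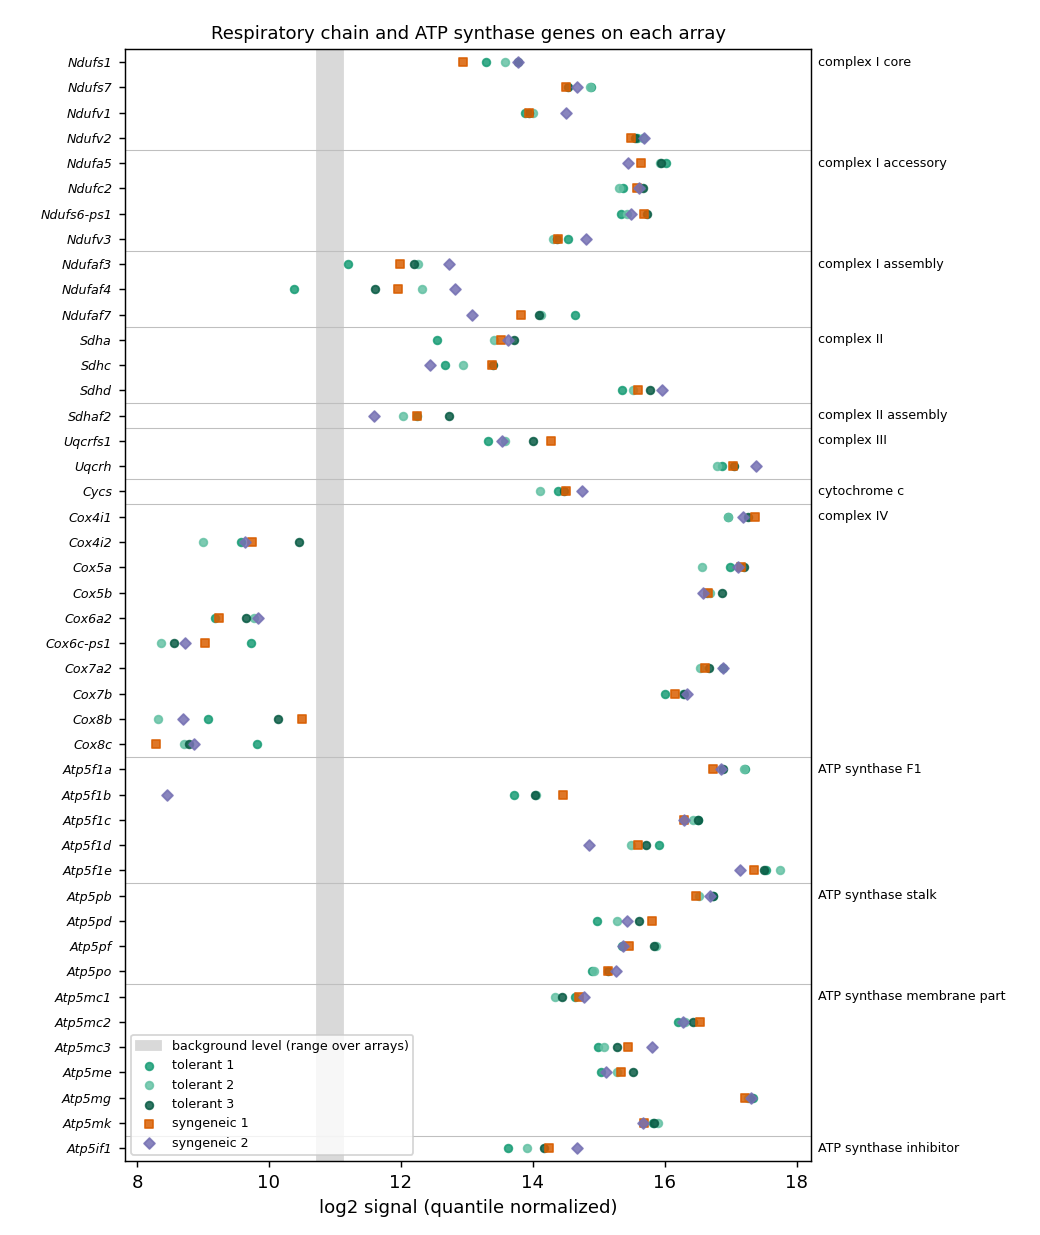
Log2 signal (quantile normalized) of all 44 genes on the x axis, 1 row per gene ordered by complex, with 1 point per array: circles for the 3 tolerant arrays, a square for syngeneic 1 and a diamond for syngeneic 2. The grey band spans the background levels of the 5 arrays (10.73 to 11.13). The 5 complex IV genes at background lie wholly to its left, and Atp5f1b has 1 point far from the others, on syngeneic 2 at 8.45.

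The comparison asked how these genes stand in cells from tolerant allograft recipients relative to cells from syngeneic controls. No member passed the test. A probe was tested where its mean log2 signal reached the median of all probes (9.40), which left 41 of the 44 genes; Cox8b, Cox8c and Cox6c-ps1 fell below it. With the moderated linear model of limma, 0 of the 41 passed a Benjamini-Hochberg adjusted p of 0.05 over all 13428 probes tested, of which 0.0447% passed (6 probes). At an unadjusted p under 0.05 the count was also 0, where 5.37% of all tested probes and 1.78% of those above background on all arrays passed. The lowest unadjusted p among members was 0.108, for Ndufaf7, and their adjusted p-values started at 0.907. In an alternative limma fit whose variance followed intensity, 1 member (Ndufaf7) and 731 of the 13428 tested probes had an unadjusted p under 0.05.

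Differences, tolerant minus syngeneic on the log2 scale, were small for most members. Of the 41, 18 were above 0 and 23 below, with a median of -0.05, beside a median of 0.0038 and 50.3% above 0 over all tested probes. A difference smaller than 0.5 in either direction was found for 36 of the 41 (87.8%), compared with 55.7% of all tested probes. The 41 include Cox4i2 and Cox6a2, which were at background on every array. Of the 37 members above background on all arrays, 17 were above 0 and 20 below. A difference smaller than 0.5 was found for 34 of them (91.9%), compared with 74.8% of tested probes above background on all arrays. The median range over the 5 arrays was 0.58 for members and 1.58 for all tested probes. Among those above background throughout it was 0.51 for members and 0.89 for probes. Neither set of probes was matched to the members in brightness, so the part of brightness in these shares and ranges was not tested. The precision was limited by 5 arrays: the median half-width of the members' 95% confidence intervals was 0.95. For 33 of the 41 the interval lay wholly within 1.5 of 0, compared with 4175 of the 13428 tested probes. Among those above background on all arrays it did so for 31 of 37 members and 2849 of 4445 probes. A p that misses the threshold does not show equal levels. In bulk RNA of sorted cells fewer cells of a type and less RNA per cell cannot be told apart.

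**Figure D2:**
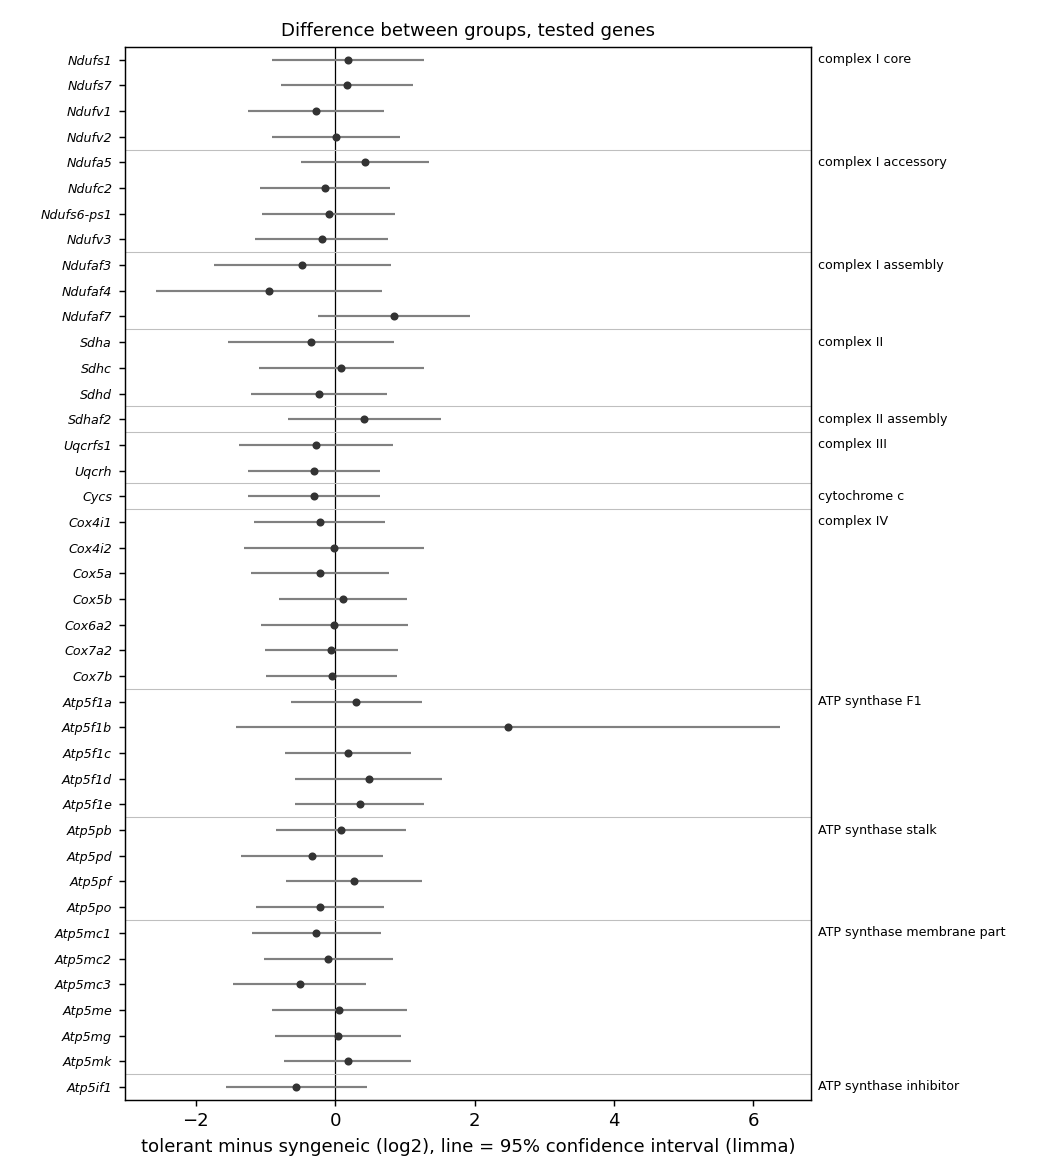
Difference of each of the 41 tested genes (x axis, tolerant minus syngeneic, log2), with points for the fitted value and lines for the 95% confidence interval from limma. Every interval includes 0; that of Atp5f1b, from -1.43 to 6.38, is the widest.

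The groups did not overlap for 11 of the 41 genes, 6 with all tolerant values higher and 5 with all lower. That share, 26.8%, was near the 20.2% of all tested probes (9.74% higher and 10.4% lower) and the 22.5% of those above background on all arrays (13.1% higher and 9.45% lower), so the count is no result about the members. The higher members were Ndufaf7, Ndufa5, Atp5f1a, Atp5f1c, Atp5f1e and Atp5mk. The lower ones were Atp5if1, Atp5mc1, Atp5mc3, Atp5po and Cycs.

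Complex I, which oxidises NADH, was represented by 4 core subunits, 4 accessory subunits and 3 assembly factors. Ndufv1, which binds NADH and the flavin, was at 13.88, 14.00 and 13.94 on the tolerant arrays and at 13.94 and 14.50 on the syngeneic arrays. Ndufv2, an iron-sulfur subunit beside it, was at 15.58, 15.67 and 15.55 against 15.48 and 15.69, and its range of 0.21 was the second narrowest of all tested members. Both genes overlapped between groups. Ndufs7, an iron-sulfur subunit near the ubiquinone site, differed by 0.17 (SE 0.39), and Ndufs1, the largest iron-sulfur subunit, by 0.18 (SE 0.45). The sign of Ndufv1, Ndufv2, Ndufs7 and Ndufs1 turned under at least 1 alternative scaling or without a single array.

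Among the accessory subunits, Ndufa5, part of the peripheral arm, was at 16.01, 15.93 and 15.95 on the tolerant arrays and at 15.64 and 15.44 on the syngeneic arrays. All tolerant values lay above both syngeneic values, a difference of 0.42 (95% confidence interval -0.49 to 1.34, limma adjusted p = 0.907). Ndufv3 differed by -0.19 and Ndufc2, of the membrane arm, by -0.14. The probe annotated as Ndufs6-ps1 differed by -0.10. It lay above background on all arrays, from 15.33 to 15.73, and signal from its parent gene Ndufs6 cannot be told apart from it without the probe's sequence.

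The widest spread in complex I was in its assembly factors, proteins that help build the complex but are absent from the finished enzyme. Ndufaf7, a methyltransferase that modifies a core subunit, was at 14.65, 14.13 and 14.10 on the tolerant arrays and at 13.82 and 13.08 on the syngeneic arrays. The groups did not overlap, and the difference was 0.84 (95% confidence interval -0.25 to 1.93, limma adjusted p = 0.907), or 0.48 without syngeneic 2 and 1.23 without syngeneic 1. Ndufaf4 went the other way, at 10.39, 12.31 and 11.61 against 11.96 and 12.82, and differed by -0.95 (SE 0.67). Only tolerant 1 was at background for it, and the groups overlapped. Its partner in assembly, Ndufaf3, was likewise lowest on tolerant 1 (11.19) and highest on syngeneic 2 (12.74), with a difference of -0.47 (SE 0.52). Leaving out single arrays gave -1.38 to -0.43 for Ndufaf4 and -0.86 to -0.10 for Ndufaf3. Tolerant 1 was at background for 8.01% of the probes that exceeded background on each of the other arrays, and the part of that in these values was not tested.

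Complex II, which is also the succinate dehydrogenase of the citrate cycle, had 3 subunits measured. Sdha, the flavoprotein that oxidises succinate and whose promoter is shown above, was at 12.55, 13.41 and 13.72 on the tolerant arrays and at 13.51 and 13.62 on the syngeneic arrays. Tolerant 1 was the low value, and the groups overlapped with a difference of -0.35 (SE 0.49), or -0.0065 without tolerant 1. The membrane anchors Sdhc and Sdhd differed by 0.09 (SE 0.49) and -0.23 (SE 0.40), and for Sdhc the sign turned without tolerant 3 and without syngeneic 2. Sdhaf2, which helps attach the flavin to Sdha, differed by 0.42 (SE 0.45) with overlapping groups, and by 0.085 without syngeneic 2 and 0.75 without syngeneic 1.

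Complex III was represented by Uqcrfs1, the Rieske iron-sulfur protein, and Uqcrh, the hinge protein. Uqcrfs1 was at 13.32, 13.57 and 14.00 on the tolerant arrays and at 14.28 and 13.54 on the syngeneic arrays, so the groups overlapped (difference -0.27, and 0.10 without syngeneic 1). Uqcrh differed by -0.30 (SE 0.39). Cycs, the cytochrome c that carries electrons onward and that triggers apoptosis when released, was at 14.39, 14.11 and 14.47 on the tolerant arrays and at 14.51 and 14.75 on the syngeneic arrays. All tolerant values were lower, tolerant 3 only just below syngeneic 1. The difference was -0.30 (95% confidence interval -1.25 to 0.65, limma adjusted p = 0.927).

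The 5 expressed complex IV genes were steady. Their ranges over the arrays ran from 0.29 for Cox5b to 0.63 for Cox5a, nuclear-encoded subunits on the matrix side of the enzyme. Differences ran from -0.22 for Cox4i1 to 0.12 for Cox5b, with Cox5a at -0.22, Cox7a2 at -0.05 and Cox7b at -0.05, and every one of these genes overlapped between groups. Cox7a2, the ubiquitous isoform of subunit VIIa, was the member with a second probe, which gave -0.31 where the first gave -0.05. On the second probe the tolerant values of 16.08, 16.00 and 16.28 lay below the syngeneic values of 16.35 and 16.51, whereas on the first the groups overlapped. The muscle and lung isoforms Cox6a2 and Cox4i2 passed the filter but stayed at background on all arrays, so their fitted differences measure no change and no fold is given for them.

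The F1 head of the ATP synthase, where ATP is formed, had all 5 differences above 0 in the main fit. No other role group with several tested members did. Without syngeneic 2, and under scaling to the 75th percentile, 4 of the 5 were above 0. Atp5f1a, the alpha subunit, was at 17.22, 17.20 and 16.88 on the tolerant arrays and at 16.73 and 16.86 on the syngeneic arrays. Atp5f1c, the rotating gamma shaft, was at 16.51, 16.43 and 16.50 against 16.30 and 16.29, and Atp5f1e, the epsilon subunit, at 17.54, 17.75 and 17.51 against 17.36 and 17.14. For these 3 all tolerant values were higher, which held for 13.1% of tested probes above background on all arrays. Atp5f1d, the delta subunit, overlapped at 15.91, 15.49 and 15.72 against 15.60 and 14.86. The differences of the 4 were 0.30, 0.19, 0.35 and 0.48, each smaller than its confidence interval's half-width, and that of Atp5f1d was 0.11 without syngeneic 2 and 0.85 without syngeneic 1. The group's median of 0.35 was 0.17 under scaling to the 75th percentile and 0.20 without normalization (relative to the median of all probes), where Atp5f1c turned to -0.05 and -0.02, and 0.19 without syngeneic 2.

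The beta subunit stood apart because of 1 array. Atp5f1b, which carries the catalytic sites, was at 13.71, 14.05 and 14.04 on the tolerant arrays and at 14.46 on syngeneic 1, but at 8.45 on syngeneic 2, below the background level of that array (10.86). The syngeneic mean was 11.46 ± 4.25 (SD, n = 2) and the tolerant mean 13.93 ± 0.19 (SD, n = 3), a difference of 2.48 (95% confidence interval -1.43 to 6.38, limma adjusted p = 0.907). Without syngeneic 2 the difference was -0.52. Without syngeneic 1, when the low value stood alone for its group, it was 5.46. The other F1 subunits, which join the beta subunit in 1 complex, had syngeneic 2 minus median of the other 4 arrays between -0.80 and -0.18, where Atp5f1b had -5.59. As that signal was below background, the gap is known only to be at least as low as -3.18, the value with the background level in its place.

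**Figure D3:**
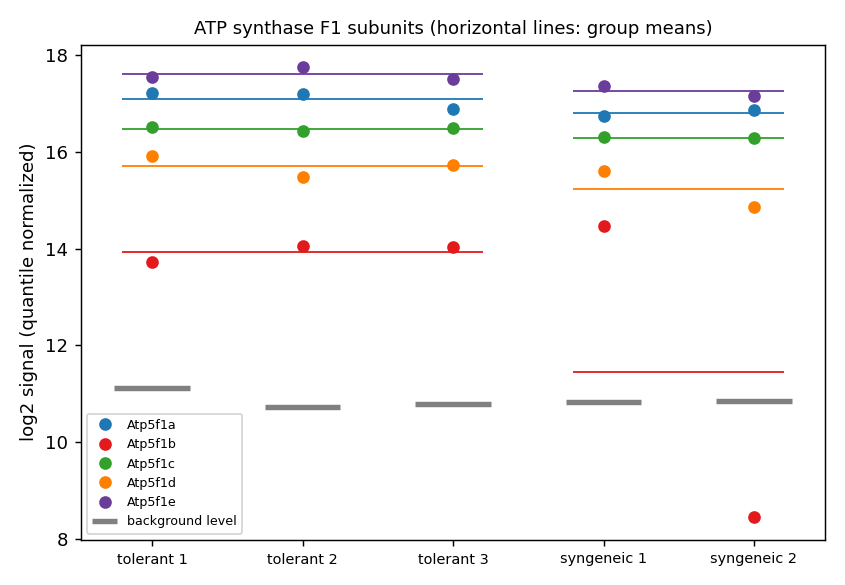
Log2 signal of the 5 F1 subunits on each array (points), with group means as thin horizontal lines and the background level of each array as grey bars. Levels of different probes are not comparable with each other. Atp5f1b falls from 14.46 on syngeneic 1 to 8.45 on syngeneic 2, while the other subunits stay between 14.86 and 17.75 on all arrays.

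Syngeneic 2 also stood apart over all probes. Among 5086 probes that exceeded background on each of the other 4 arrays, syngeneic 2 was at background for 12.6%. The same share was 8.01% on tolerant 1 and 0.693% to 1.70% for tolerant 2, tolerant 3 and syngeneic 1. Among members the count was 1 of 38, Atp5f1b. A departure of more than 1 from the median of the other arrays was seen for 26.9% of those probes on syngeneic 2 and for 2 of the 38 members, Atp5f1b and Ndufaf7. The 5th percentile of that departure over the 5086 probes was -3.14. A departure as low as the measured -5.59 of Atp5f1b, taken from a signal below background, was seen for 0.138% of them. Syngeneic 2 had the highest globin signal as well, with Hbb at 20.30, against 14.49 on syngeneic 1 and the floor of 8.29 on the tolerant arrays. Of the Gapdh probes, the brighter was at 17.76 on it and from 17.79 to 18.32 on the other arrays. The dimmer was at 12.94 on it and from 15.62 to 16.86 elsewhere. The part of these features in the Atp5f1b value was not tested.

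**Figure D4:**
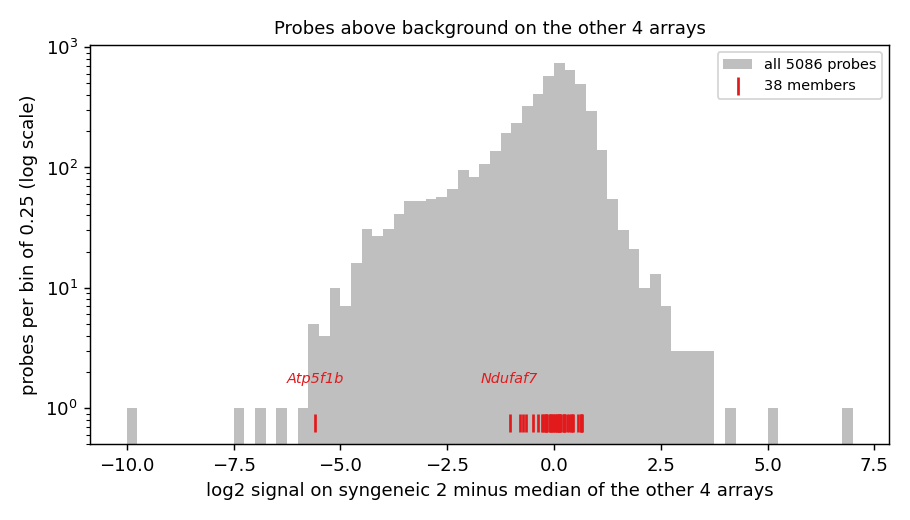
Histogram (log-scaled count per bin of 0.25) of the log2 signal on syngeneic 2 minus the median of the other 4 arrays, for the 5086 probes above background on those 4 (grey), with the 38 members as red ticks. The other 37 members lie between -1.04 and 0.65, and Atp5f1b lies at -5.59, a value taken from a signal below background.

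In the rest of the ATP synthase the stalk and the membrane part showed no common direction. The stalk, which holds the head still, had Atp5pf (coupling factor 6 in the older name) at 0.27, Atp5pb at 0.08, Atp5po (the oligomycin sensitivity protein) at -0.22 and Atp5pd at -0.33. Of its 4 genes 2 were thus above 0, and the sign of Atp5pb turned under 3 scalings. Atp5mc1, Atp5mc2 and Atp5mc3 encode the same mature rotor subunit c with different import signals, and all were below 0, at -0.27, -0.10 and -0.51. Atp5mc3 was at 14.98, 15.08 and 15.27 on the tolerant arrays and at 15.44 and 15.81 on the syngeneic arrays, without overlap (95% confidence interval -1.46 to 0.45). Atp5mg was the steadiest tested member, with a range of 0.11 from 17.22 to 17.33. Atp5mk and Atp5me, small subunits of the membrane part, differed by 0.18 and 0.06, and the Atp5me sign turned without tolerant 3 and without syngeneic 2.

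Atp5if1, the inhibitor that binds F1 and stops it from hydrolysing ATP when the proton gradient fails, was lower on all tolerant arrays. It was at 13.62, 13.92 and 14.18 on the tolerant arrays and at 14.25 and 14.67 on the syngeneic arrays. Tolerant 3 lay just below syngeneic 1, and the difference of -0.55 (95% confidence interval -1.56 to 0.45, limma adjusted p = 0.907) did not pass. It kept its sign under all alternatives run.

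Other mitochondrial genes, from 7 lists of the same pathway, gave 0 genes past an adjusted p of 0.05 in limma among 51 tested. Of all tested probes 0.0447% passed. An unadjusted limma p under 0.05 was found for 2 of the 51, and for 5.37% of all tested probes. That count is therefore no result about these lists. Ppargc1a (PGC-1 alpha), a coactivator that drives mitochondrial biogenesis, was at 9.67, 10.11 and 9.89 on the tolerant arrays and at 12.13 and 11.21 on the syngeneic arrays. It was at background on all tolerant arrays and at least 1.72-fold lower there (limma adjusted p = 0.624). All 6 tested biogenesis regulators were below 0, with a median of -0.46 (-1.11 without syngeneic 1), but only Yy1 was above background on all arrays, at -0.24. Ucp3, an uncoupling protein of muscle, was the other gene, with 1 syngeneic array above background, and no fold is given for it.

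Of 11 tested import genes 5 were above 0 (median -0.05, and 0.083 without tolerant 2), with the smallest p for Timm8a1, which was above background only on syngeneic 2. Of 10 mitochondrial ribosomal genes 2 were above 0 (median -0.22, and 0.021 without tolerant 1), with Mrps18a at -0.51. Of 8 genes for exchange across the membranes 6 were above 0 (median 0.17, but -0.020 under scaling to the 75th percentile). Slc25a5, the main ADP/ATP carrier of many cells, was steady from 17.58 to 17.91. Ucp2, an uncoupling protein of immune cells named after its values were seen, resembled Atp5f1b in being low on syngeneic 2 alone, at 10.35 against 13.63 to 15.03 elsewhere.

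The remaining lists also held no called gene. Assembly factors outside the rule had a median of -0.04 over 4 genes, which ran from -0.51 without syngeneic 1 to 0.19 without syngeneic 2, with Surf1, which assists complex IV, at -0.25 (0.04 without syngeneic 2). Genes that feed electrons to ubiquinone by other routes had a median of 0.11 over 7, or -0.26 without syngeneic 1, with Gpd2, the glycerol phosphate dehydrogenase of the inner membrane, at 0.66 (SE 0.38) and higher on all tolerant arrays. Genes that remove superoxide and peroxide had a median of 0.46 over 5, which was 0.24 without syngeneic 2, 0.28 under 75th percentile scaling and 0.27 without a filter on dim probes. Prdx5, a peroxiredoxin of that list, had overlapping groups and a difference of 0.88 (SE 0.50), or 0.31 without syngeneic 2 and 1.46 without syngeneic 1. Sod2 was at background on all arrays.

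Markers of other blood cell types were set beside these values. The 4 named markers of the sorted cells had a summed log2 signal of 15.73 to 16.07 in tolerant and 13.99 to 15.49 in syngeneic samples, without overlap. Cd14 was the brightest of them on every array, so the sum mainly follows this gene. It was above background on all 5 arrays and higher on all tolerant arrays, with a difference of 1.22 (SE 0.51, limma adjusted p = 0.907). The groups overlapped for each of Itgam, Cd86 and Cd80, and Itgam was above background on 4 arrays. Of the sorted antigens Cd80 was at background on all 5 arrays and Cd86 above it on 3. Of the 4 named depleted markers Cd74 and RT1-Da were above background on all 5 arrays and Cd3d on 3, while RT1-Db1 was at the floor on all 5. Cd74 and RT1-Da differed by 0.94 and 1.45 with overlapping groups, and Cd3d by -3.49 without overlap. All 8 named natural killer cell markers had a lower mean in tolerant samples, 7 without overlap. Ncr1, which overlapped, was at background on all arrays, so its direction measures nothing. The summed log2 signal of the 8 was 12.19 to 12.60 in tolerant and 17.25 to 17.44 in syngeneic samples. Of all tested probes 10.4% were lower without overlap. All 6 neutrophil markers were lower without overlap (15.33 to 17.43 against 19.67 to 21.16), as were all 4 T cell markers (12.39 to 13.34 against 16.24 to 16.84). Of 5 erythroid markers 4 were lower (10.97 to 11.34 against 15.57 to 21.16), with Alas2, Gata1 and Epor at background on all arrays, and both B cell markers were higher (14.78 to 17.52 against 12.52 to 14.03). The part of this makeup in the values of the respiratory genes was not tested.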

How the data were processed

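Digoxigenin-labelled RNA of 5 samples, in groups by title, was hybridised to a 1-colour Applied Biosystems rat array with 60-mer probes, per the labels. Raw intensity values were deposited on a linear scale and had not been normalized. No source used here names the scanner software or a background subtraction. Log2 values, quantile normalized by the authors, were deposited in the series matrix and differed by at most 0.000102 from log2 of quantile-normalized intensities.

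Here the intensities were quantile normalized, raised where needed to a floor (the 10th percentile, log2 8.29) and log2 transformed. Of 26857 probes, 1 with a missing value was left out. The 13428 probes with a mean at or above the median were fitted with limma 3.58.1 in R 4.3.3 (group as the only term, prior degrees of freedom 3.19), with Benjamini-Hochberg adjustment over all of them; every adjusted p comes from this tool. The fit was tested on simulated data. The median raw intensity was 563 to 798 per array, and the number of arrays limits the precision.

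Background used olfactory receptor probes by current or earlier symbol, since only 18 carry a current symbol that starts with Olr. A lower bound on a fold compares the brighter group's mean with a mean for the dimmer group in which background replaces any lower value. Symbols come from the platform annotation in GEO, which names 6104 probes with 1 gene each; promoters come from RefSeq (GRCr8). The members, lists and background rule were chosen with earlier results of these data known. Members were named where they had the 2 smallest p-values of a role group, the 5 largest differences each way, the 5 narrowest ranges, the 5 largest departures of syngeneic 2, a tissue isoform or several probes, or belonged to a set always named; the others are named to account for every member. Each partner list adds its gene with the smallest p, and genes named beside it were chosen after their values were seen. No label ties same-numbered arrays of the groups together, so the titles' numbers were not used to pair them. Their deviations from the group means had correlations of -0.10 and 0.02. With 2 syngeneic arrays these deviations mirror each other, so the correlations cannot show whether arrays were paired. Alternatives were other scalings, no floor, other filters, a trended variance, array weights, a replicate block and leaving out each array.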

Additional observations from a re-analysis of the deposited data

How the results depend on the processing

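For fits with 1 syngeneic array only effect sizes are given. The count of 0 member genes past the threshold was the same under all other alternatives. Their median difference of -0.05 moved by more than the spread between arrays under scaling to the 75th percentile (-0.26) and without normalization (-0.23, relative to a shift of -0.37 in all probes); probes above background on all arrays had a median of -0.12 in the first fit and, before that shift is taken off, -0.46 in the second, where members had -0.60. Leaving out single arrays gave -0.10 to 0.0073. The count of all probes past the threshold, 6, was 13 with 75th percentile scaling, 81 without normalization, 2 with cyclic loess, 14 with a trended variance, 0 without a filter, 0 with array weights and 0 with the replicate block, and 0 to 79 without single arrays; the cause was not tested. The number of genes above background on all arrays stayed between 35 and 37 with 3 other background levels, the last of which was added after seeing the data.

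Signs turned mostly for differences near 0. Others were larger in the main fit, such as Ndufv1 (-0.28), Uqcrfs1 (-0.27) and Surf1 (-0.25), which turned without 1 of the syngeneic arrays. The largest was Atp5f1b, with 2.48 in the main fit, -0.52 without syngeneic 2 and 5.46 without syngeneic 1. Cox4i2 and Cox6a2 were at background on every array, so their fitted values and signs measure nothing and are listed for completeness. Under 75th percentile scaling the values were -0.051 for Atp5f1c, -0.11 for Atp5me, -0.14 for Atp5mg, -0.16 for Atp5pb, 0.10 for Cox4i2, -0.14 for Cox5b, 0.11 for Cox6a2, -0.029 for Ndufs1, -0.011 for Ndufs7 and -0.14 for Ndufv2. Without normalization they were -0.020 for Atp5f1c, -0.079 for Atp5me, -0.11 for Atp5mg, -0.13 for Atp5pb, 0.13 for Cox4i2, -0.10 for Cox5b, 0.14 for Cox6a2 and -0.11 for Ndufv2. Cyclic loess gave -0.0015 for Atp5mg, -0.018 for Atp5pb, 0.094 for Cox4i2 and 0.076 for Cox6a2. Array weights gave 0.0047 for Cox4i2 and 0.062 for Cox6a2. The replicate block gave -0.061 for Atp5me and -0.11 for Sdhc and changed no member's call.

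Without single arrays Atp5f1b ran from -0.52 to 5.46, Atp5mc2 from -0.23 to 0.027, Atp5me from -0.061 to 0.18, Atp5mg from -0.0063 to 0.080, Atp5pb from -0.026 to 0.20, Cox4i2 from -0.41 to 0.31, Cox6a2 from -0.31 to 0.28, Cox7a2 from -0.19 to 0.079, Cox7b from -0.14 to 0.042, Ndufs1 from -0.24 to 0.58, Ndufv1 from -0.55 to 0.0019, Ndufv2 from -0.090 to 0.12, Ndufv3 from -0.41 to 0.024, Sdhc from -0.37 to 0.57, Uqcrfs1 from -0.64 to 0.097 and Surf1 from -0.54 to 0.039. Where 1 syngeneic array remained, it was assumed to vary like the tolerant ones.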
